A study of Mus musculus with 8 samples.

Results

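The 49 genes described here code for the machinery that carries a cell through mitosis and cytokinesis: the kinase and cyclins that start mitosis, the spindle and its checkpoint, the centromere, the enzymes that start anaphase, and the proteins that cut the daughter cells apart. They were chosen by name for these roles and matched to the gene symbols of the deposited loci without regard to case. Every one of the 49 was found, each at 1 locus, among 39614 loci with a gene symbol (annotated loci) and 80155 loci in all. RNA was sequenced from whole hearts of male Hsd:ICR(CD-1) mice, an outbred strain, harvested on postnatal day 1 (P1, 4 hearts) or postnatal day 7 (P7, 4 hearts). Each library came from 1 heart, the atrial appendages had been taken off before freezing, and no mouse carried an engineered allele or received a treatment according to the labels. Expression is given in FPKM, which divides the fragments of a locus by its length in kilobases and by the mapped fragments of the library.

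A dividing cell makes most of these RNAs late in its cycle and removes the proteins again as it leaves mitosis, so the RNAs are abundant in tissues where many cells divide and scarce where few do. Heart muscle cells of the mouse still divide at birth; within days most of them stop dividing, and some copy their DNA without splitting. Endothelial cells, fibroblasts and blood cells of the heart continue to divide for longer. In RNA from a whole heart, fewer dividing cells and less RNA per dividing cell cannot be told apart, nor can the cell type that a mitotic RNA came from.

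The hearts held the markers of working heart tissue at both stages, with the heavy chain gene Myh6 at 2533 to 5502 FPKM in P1 and 3248 to 5299 FPKM in P7. Of 40 marker genes over 9 lists, only the T cell gene Cd3e was at 0 in any heart. The summed FPKM of 5 erythroid markers ranged from 315 to 960 in P1 and from 920 to 1222 in P7, that of 5 fibroblast markers from 557 to 1035 and from 931 to 1162, that of 5 endothelial markers from 86.0 to 142 and from 108 to 170, that of 6 cardiomyocyte markers from 13224 to 25502 and from 18249 to 27739, and that of 5 leukocyte markers from 4.89 to 7.97 and from 7.82 to 10.2. In the same way, 5 smooth muscle and pericyte markers summed to between 268 and 559 FPKM in P1 and between 220 and 338 FPKM in P7, 3 atrial markers to between 2598 and 3198 and between 2317 and 3151, 3 epicardial markers to between 8.47 and 19.3 and between 11.96 and 20.03, and 3 Schwann cell markers to between 2.26 and 4.02 and between 1.24 and 7.26. Of the marker genes, Cdh5, Col1a1, Dcn, Tcf21 and Pdgfrb were higher in P7 by the test described below. Their part in the results was not tested.

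All 49 genes were expressed in every heart. Values ran from 0.729 FPKM for Espl1 in P1 replicate 2 to 125 FPKM for Pttg1 in P7 replicate 3, and 48 of the 49 reached 1 FPKM in all 8 hearts. Summed over the 49 genes, the P1 hearts held 679, 589, 589 and 799 FPKM (replicates 1 to 4, the order used throughout) and the P7 hearts 576, 469, 1038 and 849 FPKM. The P7 hearts thus gave both the lowest and the highest sums of the 8, on either side of the whole P1 range. The sum averaged 664 ± 99.8 FPKM in P1 and 733 ± 259 FPKM in P7 (SD, n = 4 each), a difference far smaller than the spread between the P7 hearts.

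The level of a typical annotated locus also differed from heart to heart. A scale factor was therefore taken for each heart as the median over 19809 annotated loci of its FPKM relative to the geometric mean of the 8 hearts (median-ratio scaling). The factors were 0.95, 0.85, 0.80 and 1.16 in P1 and 1.17, 0.94, 1.27 and 1.06 in P7, and as deposited the fold change was above 0 at 67.6% of annotated loci. After division by these factors the 4 P1 hearts agreed closely and the 4 P7 hearts did not. The scaled sums were 713, 691, 735 and 689 FPKM in P1 and 490, 498, 817 and 804 FPKM in P7. Replicates 1 and 2 of P7 lay below every P1 heart and replicates 3 and 4 lay above every P1 heart. The scaled means were 707 ± 21.6 FPKM in P1 and 652 ± 183 FPKM in P7 (SD, n = 4 each).

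**Figure D1:**
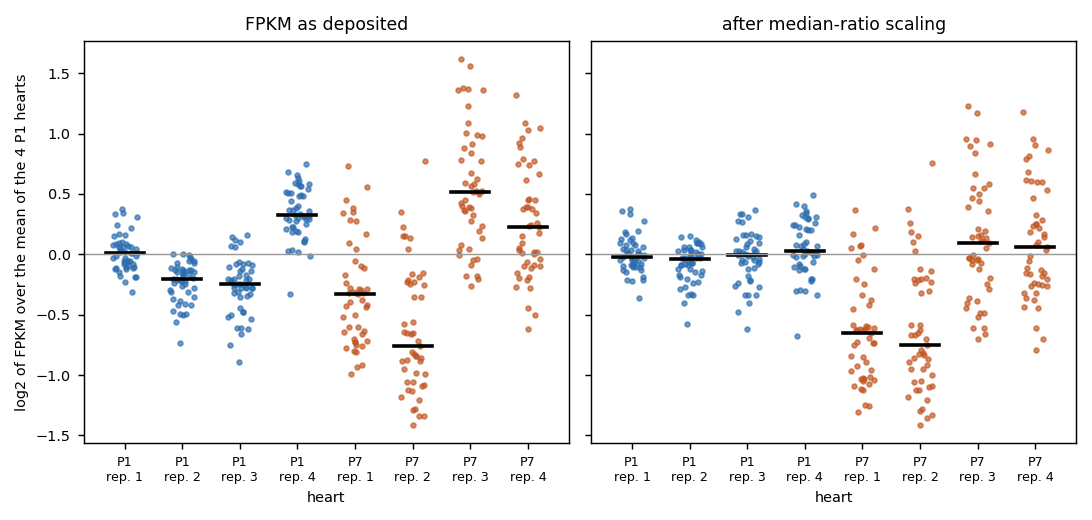
Each point is 1 of the 49 mitosis and cytokinesis genes in 1 heart, as the log2 of its FPKM over the gene's mean in the 4 P1 hearts (y axis), for the 8 hearts (x axis), with FPKM as deposited on the left and after median-ratio scaling on the right. Blue is P1, orange is P7, and the bar is the median over the genes. After scaling, the medians of the P1 hearts sit between -0.04 and 0.03, those of P7 replicates 1 and 2 at -0.65 and -0.75, and those of P7 replicates 3 and 4 at 0.09 and 0.06.

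The same order of the P7 hearts ran through every gene. Each of the 49 genes was higher in P7 replicate 3 than in P7 replicate 1, and each was higher in replicate 3 than in replicate 2, in replicate 4 than in replicate 1 and in replicate 4 than in replicate 2, both as deposited and after scaling. Among all annotated loci tested, scaled values were higher in the second heart of these 4 pairs at 49.96%, 52.2%, 48.0% and 49.2% of loci. Within the other pairs of P7 hearts the genes divided evenly after scaling, with 23 of 49 higher in replicate 2 than in replicate 1 and 25 of 49 higher in replicate 4 than in replicate 3. The median gene was higher by 0.73 on the log2 scale in replicate 3 than in replicate 1 and by 0.79 in replicate 4 than in replicate 2.

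As deposited, 48 of the 49 genes were higher in P1 replicate 4 than in P1 replicate 2, beside 79.3% of annotated loci, and no pair of P1 hearts stood apart after scaling. Between 21 and 33 of the 49 genes were then higher in the second heart of each of the 6 pairs. The median gene had an SD of log2 FPKM of 0.19 among the P1 hearts and 0.46 among the P7 hearts after scaling, and 45 of the 48 genes at 1 FPKM or more in every heart varied more in P7 than in P1. Among the 12730 annotated loci that met the same limit the median SDs were 0.23 in P1 and 0.20 in P7, and 44.0% varied more in P7. The labels give no batch, litter or time of harvest for these hearts.

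Markers of cell types in the 4 P7 hearts are given beside this order. After scaling, the cardiomyocyte sum was 17679, 19367, 21834 and 21227 FPKM, the smooth muscle and pericyte sum 216, 233, 266 and 268 FPKM, and the erythroid sum 784, 985, 962 and 1095 FPKM. The fibroblast sum was 990, 988, 872 and 944 FPKM, the endothelial sum 129, 115, 134 and 121 FPKM, and the leukocyte sum 8.68, 8.30, 7.598 and 7.56 FPKM. The cardiomyocyte and the smooth muscle and pericyte sums were higher in replicates 3 and 4 than in replicates 1 and 2, though by a smaller factor than the mitosis genes, and the fibroblast and leukocyte sums were lower there. Single markers were divided: replicates 3 and 4 both lay above replicates 1 and 2 for 4 of 6 cardiomyocyte, 2 of 5 smooth muscle and pericyte, 2 of 5 erythroid, 2 of 5 endothelial, 0 of 5 fibroblast and 0 of 5 leukocyte markers. The smooth muscle sum followed Acta2, at 77.3, 142, 157 and 159 FPKM after scaling, while Rgs5 was highest in replicate 1, at 111, 67.6, 83.1 and 82.6 FPKM. The part of any cell type in the order of the P7 hearts was not tested.

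**Figure D2:**
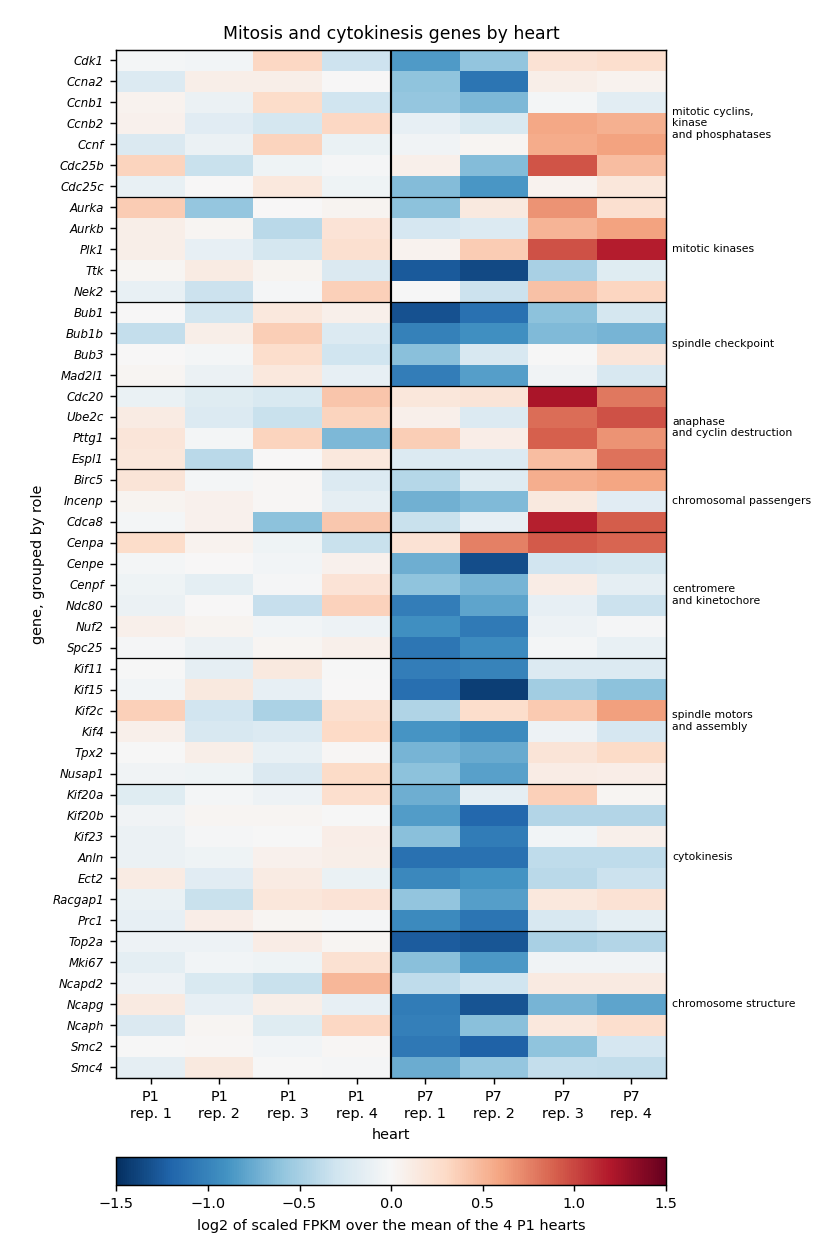
Rows are the 49 genes grouped by role, columns are the 8 hearts, and colour is the log2 of the median-ratio scaled FPKM over the gene's mean in the 4 P1 hearts, from blue (lower) to red (higher). P7 replicates 1 and 2 are mostly blue, with 43 and 42 of the 49 genes below the P1 mean, while P7 replicates 3 and 4 hold 23 such genes each.

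Between stages, 1 of the 49 genes was differentially expressed. Differential expression was tested with limma on log2(FPKM + 1) over all 43172 loci that reached 1 FPKM in any heart, and a gene was called where the Benjamini-Hochberg adjusted p was below 0.05 and the stage means differed by 1.5 times or more. Cenpa rose and no member fell, against 8.14% of the 17960 annotated loci called in either direction, 7.74% higher and 0.401% lower in P7. At an unadjusted p under 0.05, limma counted 4 members higher and 4 lower, where 25.6% and 4.1% of annotated loci passed. Cenpa was also the 1 member whose P7 hearts all lay above P1, beside 17.3% of annotated loci, and in 0 members did all lie below, beside 2.69%. The median log2 fold change of the 49 genes, P7 minus P1, was -0.06, beside 0.19 for all annotated loci, and 34 of the 49 lay below that background median.

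After median-ratio scaling, which was an alternative and not the main test, 15 members had positive and 34 negative fold changes, beside 21 and 28 as deposited. The background median became 0.00 and the member median -0.26. Cenpa remained higher, and 5 members were lower: Bub1b, Kif15, Top2a, Ncapg and Smc2. The background was 11.2% of 17891 annotated loci, 7.76% higher and 3.47% lower. With scaling, limma gave 17 members an unadjusted p under 0.05 in the lower direction, beside 16% of annotated loci, and 4 in the higher direction, beside 19.7%. In 12 members every scaled P7 value lay below every scaled P1 value, beside 12.9% of annotated loci, and in 0 members above, beside 15.5%. The gap between the member median and the background median was -0.25 as deposited and -0.27 after scaling. Scaling divides all loci of a heart by the same factor, so a near-equal gap follows from the method and is no check.

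**Figure D3:**
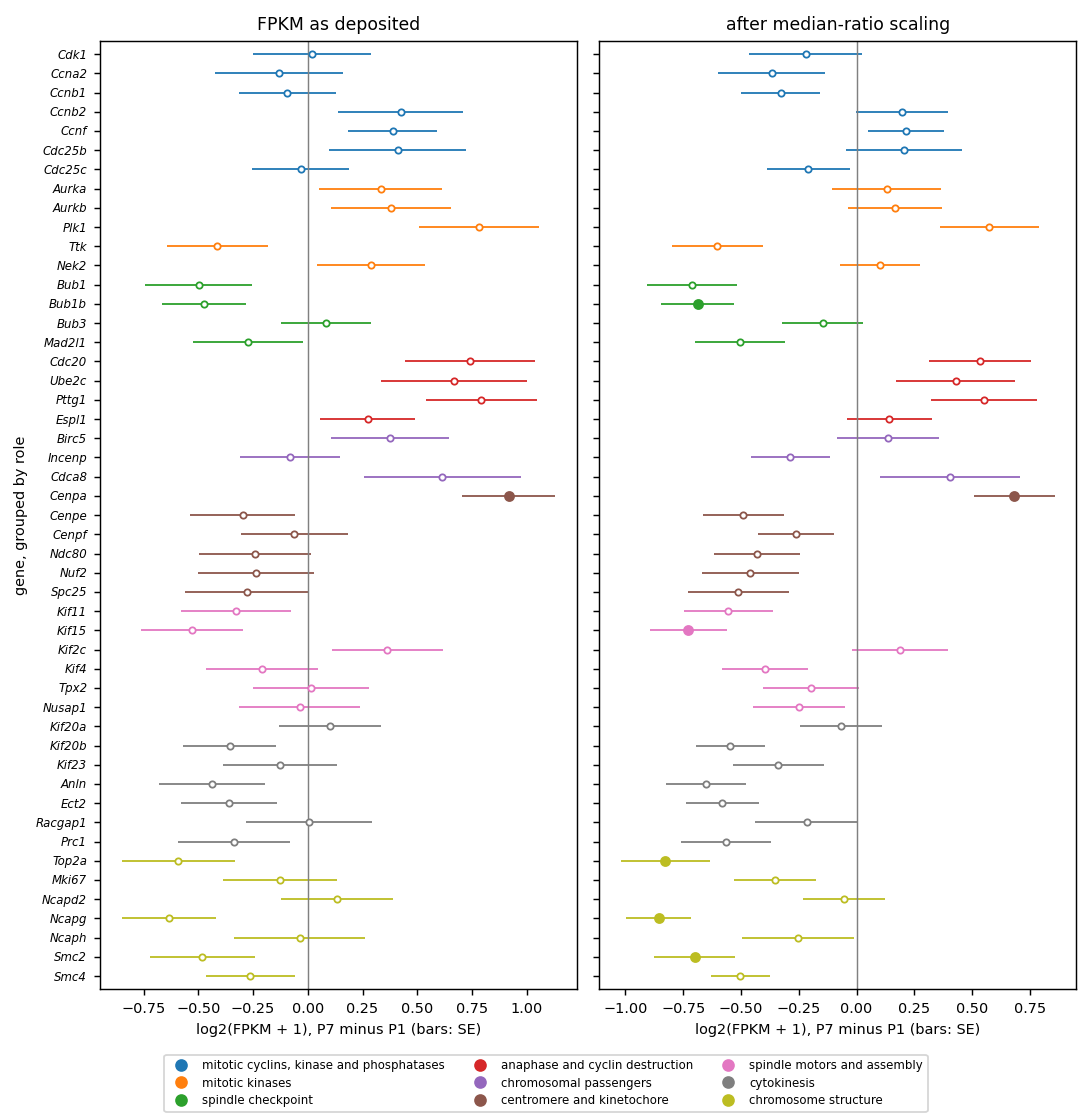
The log2 fold change of each gene (P7 minus P1, on log2(FPKM + 1), with its standard error from limma, 4 hearts per stage) is drawn by role, with FPKM as deposited on the left and after median-ratio scaling on the right. Filled points passed the adjusted p and the ratio: Cenpa on both sides, and Bub1b, Kif15, Top2a, Ncapg and Smc2 on the right alone.

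The promoters of these genes were searched for motifs already known from promoters of late cell cycle genes. A high share was therefore likely in advance, and the counts are a description. Genes of late cell cycle are known to carry a cell cycle homology region (CHR), with the letters TTTGAA or more rarely those of its variant TTCGAA, bound by the DREAM and MuvB complexes, near CCAAT boxes, bound by NF-Y. RefSeq promoters of GRCm38.p6, from 250 bases before to 50 bases after the start, were found by symbol for 42 of the 49 genes, as 45 promoters of 300 bases, and were searched on both strands. TTTGAA stood in 34 of the 45 (75.6%) and in 17.9% of all 32851 promoters. TTCGAA, which reads the same on both strands, stood in 4 of 45 (8.89%) beside 1.56%, and CCAAT in 34 of 45 (75.6%) beside 37.4%. At least 1 CHR together with at least 1 CCAAT was found in 31 of 45 (68.9%) beside 7.52% of all promoters. For factors of the E2F family the motif TTCGCGC was searched, next to it the form TTGGCGC, and also the form TTCCCGC. The form TTGGCGC stood in 8 of 45 promoters (17.8%) beside 2.45% of all promoters. Each of the other E2F forms stood in 1 of 45 (2.22%), beside 1.59% for the one named first and 4.5996% for the one named last. A match is a description of the letters and not a shown binding site.

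Promoters of 6 members are printed to show this layout: the mitotic kinase and its cyclins, Plk1, and the members with the strongest call in each direction, Cenpa (higher) and Ncapg (lower, after scaling). Capitals mark both CHR forms, CCAAT boxes and the 3 E2F motifs on either strand, so that a CCAAT on the other strand reads ATTGG, and neighbouring matches may overlap. All are 5′ to 3′ along the gene's own strand.
Cdk1 (chr10:69352863-69353162, minus strand): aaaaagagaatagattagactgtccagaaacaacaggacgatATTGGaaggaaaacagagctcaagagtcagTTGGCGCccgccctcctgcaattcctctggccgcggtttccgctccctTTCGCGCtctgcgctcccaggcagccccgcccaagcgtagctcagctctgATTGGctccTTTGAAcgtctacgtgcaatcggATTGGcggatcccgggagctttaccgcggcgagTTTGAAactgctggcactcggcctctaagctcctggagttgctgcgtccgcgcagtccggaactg
Ccnb1 (chr13:100786437-100786736, minus strand): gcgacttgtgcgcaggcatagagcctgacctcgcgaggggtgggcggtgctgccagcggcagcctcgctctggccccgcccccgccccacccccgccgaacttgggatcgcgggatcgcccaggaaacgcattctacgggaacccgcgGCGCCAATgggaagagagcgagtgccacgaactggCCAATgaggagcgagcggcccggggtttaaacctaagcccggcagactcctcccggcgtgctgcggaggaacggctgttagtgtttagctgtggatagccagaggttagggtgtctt
Ccnb2 (chr9:70421505-70421804, minus strand): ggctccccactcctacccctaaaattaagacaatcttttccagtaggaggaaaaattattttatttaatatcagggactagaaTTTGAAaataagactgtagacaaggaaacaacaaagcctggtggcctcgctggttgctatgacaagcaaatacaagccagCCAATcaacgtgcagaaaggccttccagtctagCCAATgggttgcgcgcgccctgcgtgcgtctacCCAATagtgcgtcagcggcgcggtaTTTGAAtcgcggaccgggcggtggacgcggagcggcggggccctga
Plk1 (chr7:122159185-122159484, plus strand): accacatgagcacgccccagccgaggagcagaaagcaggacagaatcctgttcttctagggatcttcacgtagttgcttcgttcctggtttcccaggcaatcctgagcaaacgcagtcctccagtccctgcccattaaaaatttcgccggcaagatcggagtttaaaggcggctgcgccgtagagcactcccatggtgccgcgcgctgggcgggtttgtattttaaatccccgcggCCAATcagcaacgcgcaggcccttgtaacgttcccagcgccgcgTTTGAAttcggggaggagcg
Cenpa (chr5:30666636-30666935, plus strand): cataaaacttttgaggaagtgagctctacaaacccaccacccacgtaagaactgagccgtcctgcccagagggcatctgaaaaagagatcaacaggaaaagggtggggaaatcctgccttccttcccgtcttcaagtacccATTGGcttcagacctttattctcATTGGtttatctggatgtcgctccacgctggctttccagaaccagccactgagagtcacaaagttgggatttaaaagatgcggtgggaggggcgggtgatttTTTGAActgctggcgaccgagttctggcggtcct
Ncapg (chr5:45669675-45669974, plus strand): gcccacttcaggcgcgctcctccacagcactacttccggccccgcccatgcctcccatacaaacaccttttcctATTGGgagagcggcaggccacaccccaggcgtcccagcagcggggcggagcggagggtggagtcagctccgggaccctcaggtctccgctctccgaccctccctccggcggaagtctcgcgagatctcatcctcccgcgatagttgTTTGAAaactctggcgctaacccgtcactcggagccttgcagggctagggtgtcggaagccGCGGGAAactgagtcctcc

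Cdk1 held 2 TTTGAA, the nearer of them beginning 15 bases before the start, with 3 CCAAT boxes further up and, between the farthest of them and the others, TTGGCGC and TTCGCGC. Ccnb2 had 3 CCAAT boxes, beginning 87, 54 and 21 bases before the start, with a TTTGAA further up and another at position 5 after it. In Plk1 the single CCAAT began 14 bases before the start and TTTGAA at position 31, and in Cenpa a pair of CCAAT boxes lay above a TTTGAA at position 17. Ccnb1 had 2 CCAAT boxes, the first overlapping a TTGGCGC, and neither CHR form in this window.

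The mitotic cyclins, their kinase and the phosphatases that switch the kinase on made up 7 members, and none was differentially expressed. Cdk1, the kinase that drives entry into mitosis, stood at 49.4, 43.9, 52.4 and 49.6 FPKM in P1 and at 34.4, 33.2, 77.8 and 66.6 FPKM in P7. No P7 heart lay inside the narrow P1 range: replicates 1 and 2 were under it and replicates 3 and 4 over it, and the log2 fold change was 0.02 ± 0.27 (SE, as for all fold changes below, limma adjusted p = 0.971). Ccnb1, the B-type cyclin that activates Cdk1, was 22.6, 18.4, 22.3 and 21.6 FPKM in P1 and 18.0, 13.6, 28.6 and 21.7 FPKM in P7.

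The ratio of Ccnb1 to Cdk1, which no scale factor can change, was 0.457, 0.418, 0.425 and 0.435 in P1 and 0.522, 0.409, 0.367 and 0.326 in P7. The kinase and its cyclin thus kept nearly the same proportion in P1 (SD 0.017), while in P7 the ratio spread more widely (SD 0.084). Ccna2, the A-type cyclin of S phase and early mitosis, averaged 29.7 ± 4.996 FPKM in P1 and 29.0 ± 12.5 FPKM in P7. Ccnb2, the other mitotic B-type cyclin, averaged 12.3 ± 4.44 and 17.0 ± 6.20 FPKM. Ccnf, the F-box cyclin that marks proteins for destruction, had 1.95 ± 0.293 and 2.92 ± 0.876 FPKM, at a locus that also carries the symbol of a microRNA. The phosphatases that activate Cdk1 were Cdc25b, with 4.38 ± 1.23 and 6.63 ± 3.54 FPKM, and Cdc25c, with 2.39 ± 0.303 and 2.41 ± 0.956 FPKM (SD, n = 4). Fold changes in this group ran from -0.13 for Ccna2 to 0.42 for Ccnb2 on the log2 scale.

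**Figure D4:**
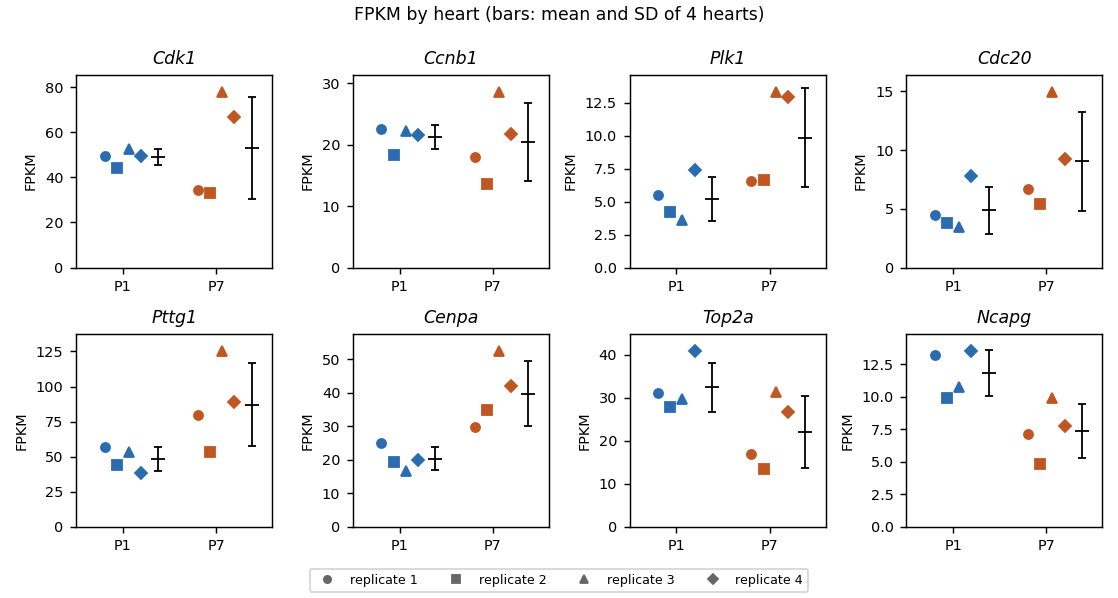
FPKM of 8 genes (y axis, from 0) in the 4 P1 hearts (blue) and the 4 P7 hearts (orange), with a marker shape for each replicate number and the mean and SD of 4 hearts in black. Cdk1 and Ccnb1 spread in P7 around their P1 level, the 4 P7 hearts of Cenpa sit between 29.8 and 52.3 FPKM above all P1 hearts, and for Ncapg only 1 P7 heart, at 9.89 FPKM, reaches the lowest P1 value.

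Of the 5 mitotic kinases none passed the test, and 4 of the 5 had positive fold changes, beside 67.6% of annotated loci. Plk1, the Polo kinase that acts on centrosomes, kinetochores and the midzone, was 5.47, 4.23, 3.61 and 7.41 FPKM in P1 and 6.57, 6.62, 13.3 and 12.9 FPKM in P7. Its ratio of means was 1.90, but P1 replicate 4 exceeded 2 of the P7 hearts, and the log2 fold change of 0.78 ± 0.27 had an adjusted p of 0.146 with limma. Aurkb, the kinase of the chromosomal passenger complex, averaged 7.75 ± 2.48 and 10.5 ± 3.82 FPKM, and Aurka, which acts at spindle poles, 5.17 ± 1.74 and 6.89 ± 2.92 FPKM.

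Nek2, a kinase that separates centrosomes, averaged 3.11 ± 1.17 and 4.02 ± 1.30 FPKM. Ttk, the kinase that starts spindle checkpoint signalling (also known as Mps1), was the exception in this group, with 4.14, 3.94, 3.51 and 4.25 FPKM in P1 and 2.09, 1.57, 3.85 and 3.97 FPKM in P7 and a log2 fold change of -0.41 ± 0.23. P7 replicates 3 and 4 of Ttk were inside the P1 range and replicates 1 and 2 below it.

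The spindle checkpoint holds anaphase back until all chromosomes are attached, and its 4 members had fold changes from -0.50 for Bub1 to 0.08 for Bub3 on the log2 scale. Bub1b, the checkpoint protein BubR1, was 6.29, 7.69, 8.74 and 8.56 FPKM in P1 and 4.94, 4.23, 6.80 and 5.52 FPKM in P7. As deposited its log2 fold change of -0.48 ± 0.19 did not pass (limma adjusted p = 0.209), and P7 replicate 3 lay above the lowest P1 heart. After scaling no P7 heart overlapped P1 and the change of -0.69 ± 0.16 passed (adjusted p = 0.0325). Bub1, a kinase of the same checkpoint, was 9.47, 6.98, 8.85 and 12.1 FPKM in P1 and 4.69, 4.29, 8.24 and 8.72 FPKM in P7, with an adjusted p of 0.3003 as deposited and 0.0605 after scaling (limma). Mad2l1, which blocks Cdc20, averaged 23.0 ± 2.82 and 19.9 ± 7.98 FPKM, and Bub3, the partner of Bub1 and BubR1, 15.5 ± 1.013 and 16.8 ± 4.396 FPKM. The deposited locus of Bub3, chr7:130162451-133124354, runs far past both ends of the gene, at 131560222-131571895 in GENCODE M21. Fgfr2 overlaps Bub3 on the opposite strand.

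The 4 genes of anaphase and cyclin destruction all had positive fold changes as deposited and after scaling, beside 67.6% and 50.2% of annotated loci. The group median was 0.70 as deposited and 0.48 after scaling, though none passed the test either way. Cdc20, Ube2c and Espl1 have 55.6%, 55.5% and 56.1% GC. As deposited, the median of annotated loci was 0.51 at 54 to 56% GC and 0.60 at 56 to 58% GC. With the GC correction described below, Espl1 was at -0.05, Ube2c at 0.37, Cdc20 at 0.44 and Pttg1 at 0.96. With scaling and GC correction together they were at -0.19, 0.13, 0.23 and 0.72, in the same order. Pttg1, the securin that holds separase inactive, was 57.0, 44.1, 53.2 and 38.3 FPKM in P1 and 80.1, 53.4, 125 and 89.1 FPKM in P7. Only P7 replicate 2 fell within the P1 range, and the log2 fold change was 0.79 ± 0.25 (limma adjusted p = 0.112). Cdc20, the activator of the anaphase-promoting complex, was 4.47, 3.77, 3.43 and 7.80 FPKM in P1 and 6.64, 5.40, 14.9 and 9.20 FPKM in P7, with 2 P7 hearts below P1 replicate 4.

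Ube2c, the ubiquitin-conjugating enzyme of that complex, was 37.3, 26.6, 22.8 and 52.5 FPKM in P1 and 44.5, 29.4, 81.7 and 73.7 FPKM in P7. Of the 49 genes, 12 overlap a protein-coding gene on the opposite strand, among them Cdc20 with Elovl1 and Ube2c with Tnnc2, and the sources used here do not say whether the counting used strand. Espl1, the separase that cuts cohesin, had the lowest level of all members, with 1.08 ± 0.326 FPKM in P1 and 1.54 ± 0.591 FPKM in P7.

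The chromosomal passenger complex corrects faulty attachments and then moves to the midzone, and its kinase Aurkb is described above. Birc5, the subunit survivin, was 47.2, 36.2, 35.1 and 43.7 FPKM in P1 and 37.97, 35.7, 80.6 and 69.2 FPKM in P7. Replicates 1 and 2 of P7 were within the P1 range and replicates 3 and 4 were over it, and the log2 fold change of 0.38 ± 0.27 did not pass (limma adjusted p = 0.441). Cdca8, the subunit borealin, had 6.16, 5.86, 3.44 and 10.1 FPKM in P1 and 6.13, 5.70, 18.8 and 13.02 FPKM in P7. Incenp, the scaffold of the complex, averaged 5.35 ± 0.614 and 5.22 ± 2.06 FPKM. Fold changes of these 3 subunits ran from -0.08 for Incenp to 0.62 for Cdca8.

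Cenpa, the histone H3 variant that marks the centromere, was the only member called as deposited. It stood at 25.1, 19.3, 16.7 and 20.1 FPKM in P1 and at 29.8, 34.7, 52.3 and 42.0 FPKM in P7, with no overlap between the stages. The means were 20.3 ± 3.51 and 39.7 ± 9.77 FPKM (SD, n = 4), a ratio of 1.96, with a log2 fold change of 0.92 ± 0.21 and a limma adjusted p of 0.0356. The locus lies at chr5:30666777-30681722 (GRCm38, gene on the plus strand) in the files and runs past the end of the gene at 30674830 in GENCODE M21.

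The call for Cenpa stood near the threshold. Leaving out 1 heart kept the log2 fold change between 0.78 and 1.04, and the adjusted p was under 0.05 in 3 of 8 such fits: 0.0481 without P1 replicate 1, 0.0316 without P1 replicate 4 and 0.0499 without P7 replicate 2. It was 0.117 without P1 replicate 2, 0.0881 without P1 replicate 3, 0.0583 without P7 replicate 1, 0.103 without P7 replicate 3 and 0.0905 without P7 replicate 4. With the median-ratio scale the change was 0.68 ± 0.18 (limma adjusted p = 0.0492), and 1 P7 heart then fell within the P1 range.

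The other 5 centromere and kinetochore members had negative fold changes, from -0.30 for Cenpe to -0.06 for Cenpf, and none passed. Ndc80, Nuf2 and Spc25 are subunits of the NDC80 complex, the main microtubule clasp of the kinetochore. Spc25 was 21.7, 18.5, 18.8 and 28.2 FPKM in P1 and 12.7, 11.3, 28.7 and 22.6 FPKM in P7, and the log2 fold changes of Ndc80, Nuf2 and Spc25 were close to each other at -0.24, -0.24 and -0.28. In all of them P7 replicates 1 and 2 were below the P1 range and replicates 3 and 4 within it or above. Cenpe, a kinesin that carries chromosomes to the equator, averaged 3.96 ± 0.800 and 3.14 ± 1.197 FPKM, and Cenpf, a large protein of the outer kinetochore, 5.09 ± 1.40 and 4.93 ± 1.80 FPKM.

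Among the 6 spindle motors and assembly factors, none was called as deposited and Kif15 was called after scaling. Kif15, a kinesin that helps to hold the spindle poles apart, was 5.31, 5.44, 4.24 and 6.69 FPKM in P1 and 3.10, 2.03, 5.11 and 3.98 FPKM in P7. The log2 fold change was -0.53 ± 0.23 as deposited and -0.73 ± 0.17 after scaling (limma adjusted p = 0.247 and 0.0320). Kif11, the main motor that separates the poles (Eg5), averaged 13.7 ± 2.33 and 11.2 ± 4.31 FPKM, with all scaled P7 values under the scaled P1 values but an adjusted p of 0.131. Kif4, a chromosome-bound kinesin, had 3.89 ± 1.37 and 3.25 ± 1.28 FPKM.

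Tpx2, which brings Aurora A to the spindle, had 6.22 ± 1.17 and 6.63 ± 2.84 FPKM, and Nusap1, a microtubule-bundling protein, 7.44 ± 2.48 and 7.37 ± 2.89 FPKM. Kif2c, a kinesin that takes microtubule ends apart at centromeres, was the only one of the group with a clearly positive estimate, 0.36 ± 0.25 on the log2 scale, which did not pass either (limma adjusted p = 0.434).

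The 7 cytokinesis genes had a group median of -0.34 as deposited and -0.55 after scaling. With the GC correction described below their log2 fold changes ran from -0.25 for Anln to 0.19 for Kif20a. Anln, the actin-binding protein anillin of the cleavage furrow, was 8.45, 7.68, 7.89 and 11.6 FPKM in P1 and 5.11, 4.08, 9.17 and 7.67 FPKM in P7. Ect2, the exchange factor that activates RhoA at the furrow, was 13.1, 9.56, 11.04 and 13.7 FPKM in P1 and 7.595, 6.42, 12.1 and 10.7 FPKM in P7. Both overlapped P1 as deposited and neither did after scaling, where limma gave adjusted p = 0.0540 for Anln and 0.0585 for Ect2.

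Prc1, which bundles the midzone microtubules, and Kif20b, a midzone kinesin, also had all scaled P7 values below P1 without passing the test, at log2 fold changes of -0.56 ± 0.20 and -0.55 ± 0.15 after scaling. Kif23 and Racgap1, which together form centralspindlin, averaged 6.37 ± 1.38 and 5.996 ± 2.39 FPKM and 9.98 ± 2.93 and 10.4 ± 4.29 FPKM. Their fold changes, -0.13 and 0.01, were smaller than their standard errors. Kif20a, the midzone kinesin that brings Plk1 and Aurora B there, averaged 2.48 ± 0.754 and 2.78 ± 1.05 FPKM.

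The 7 genes of chromosome structure included 3 of the 5 members that were lower after scaling. Ncapg, a subunit of condensin I, was 13.3, 9.89, 10.7 and 13.5 FPKM in P1 and 7.17, 4.84, 9.89 and 7.73 FPKM in P7. P7 replicate 3 touched the lowest P1 heart as deposited, and the log2 fold change was -0.64 ± 0.22 (limma adjusted p = 0.136). After scaling it was -0.86 ± 0.14 with an adjusted p of 0.00982, and it passed in all 8 scaled fits that left out 1 heart, with adjusted p between 0.0119 and 0.0325. Its locus in the files, chr5:45669922-45857615 (GRCm38, gene on the plus strand), reaches over Lcorl, which lies on the opposite strand.

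Top2a, the topoisomerase that disentangles sister chromatids, was 31.1, 27.9, 29.8 and 40.7 FPKM in P1 and 17.0, 13.3, 31.3 and 26.7 FPKM in P7. Its log2 fold change was -0.59 ± 0.26 as deposited and -0.83 ± 0.19 after scaling (limma adjusted p = 0.245 and 0.0343), at a locus shared with a small nucleolar RNA. Smc2, the ATPase core of condensin, was 11.1, 10.1, 9.09 and 13.8 FPKM in P1 and 6.53, 4.76, 9.73 and 10.3 FPKM in P7, with -0.48 ± 0.24 and -0.70 ± 0.17 (adjusted p = 0.302 and 0.0442). Outside Ncapg most of these calls were lost when 1 heart was left out: of the 8 scaled fits with 1 heart left out, 1 called Smc2, 2 called Top2a, 2 called Bub1b and 4 called Kif15.

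Smc4, the partner of Smc2, was the most abundant of the group at 74.9 ± 11.9 and 62.6 ± 12.6 FPKM, and its locus also carries a pair of microRNA symbols. After scaling its adjusted p was 0.0455 with limma, but the ratio of means did not reach 1.5. Mki67, the Ki-67 antigen that coats mitotic chromosomes and is used to mark proliferating cells, was 11.3, 10.9, 10.0 and 17.8 FPKM in P1 and 10.0, 6.83, 16.1 and 13.4 FPKM in P7. The stages overlapped, with a log2 fold change of -0.13 ± 0.26 (adjusted p = 0.776). The other condensin I subunits were Ncaph, with 9.38 ± 3.19 and 9.46 ± 4.25 FPKM, and Ncapd2, with 4.10 ± 1.91 and 4.44 ± 1.18 FPKM.

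Members with opposite signs can be compared without any scaling by their ratio within a heart. These pairs were chosen after the fold changes were seen, so the values are a description with no test. Cenpa over Top2a was 0.807, 0.694, 0.561 and 0.493 in P1 and 1.76, 2.599, 1.67 and 1.57 in P7. Plk1 over Bub1 was 0.578, 0.605, 0.408 and 0.614 in P1 and 1.40, 1.54, 1.61 and 1.48 in P7. Neither ratio overlapped between the stages. The ratios are not free of base composition: with the GC correction described below, the log2 fold change of Plk1 went from 0.78 to 0.47 and that of Bub1 from -0.50 to -0.22. The P7 hearts that differed most in level, replicates 2 and 3, had similar Plk1 over Bub1, and Pttg1 over Ncapg was 11.2, 11.02, 12.6 and 11.5 in the P7 hearts and 2.84 to 4.95 in P1.

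Fold changes of the members ran with the base composition of their transcripts. Over the 49 genes, Spearman's rho between the log2 fold change and the GC content of the longest transcript in GENCODE M21 was 0.75, and with transcript length it was -0.49. The same measures over 15430 annotated loci with a transcript were 0.53 and -0.004. Genes in 1 set of libraries are not independent, and no p is given. Of the 5 members called lower after scaling, Ncapg had 34.8% GC, Smc2 39.7%, Kif15 42.7% and Top2a 43.4%, but Bub1b had 50.4%. Plk1, Cdc20 and Ube2c, with positive fold changes, were at 56.0%, 55.6% and 55.5%. Cenpa, at 48.7%, lay between them and below Bub1b.

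When each member was set against the annotated loci of its own 2-percentage-point bin of GC content, 35 of 49 lay below the bin's median as deposited and 36 of 49 after scaling. The median difference over the 49 was -0.19 and -0.21 on the log2 scale. With a GC correction of every heart, Cenpa kept a log2 fold change of 1.00 ± 0.21 (limma adjusted p = 0.0461). The member median became 0.03 beside 0.22 for annotated loci, and 36 of the 49 lay below that background median, against 34 as deposited. With scaling and GC correction together no member passed, where 1047 of all 47865 loci were called, against 2368 with scaling alone. The lowest adjusted p with limma were 0.0524 for Bub1b, 0.0558 for Cenpa and 0.0676 for Ncapg. The log2 fold changes then were -0.69 for Bub1b and 0.76 for Cenpa, as large as or larger than with scaling alone, and -0.56 for Ncapg, which was -0.86 with scaling alone. The part of base composition in the fold changes of single members was not tested.

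**Figure D5:**
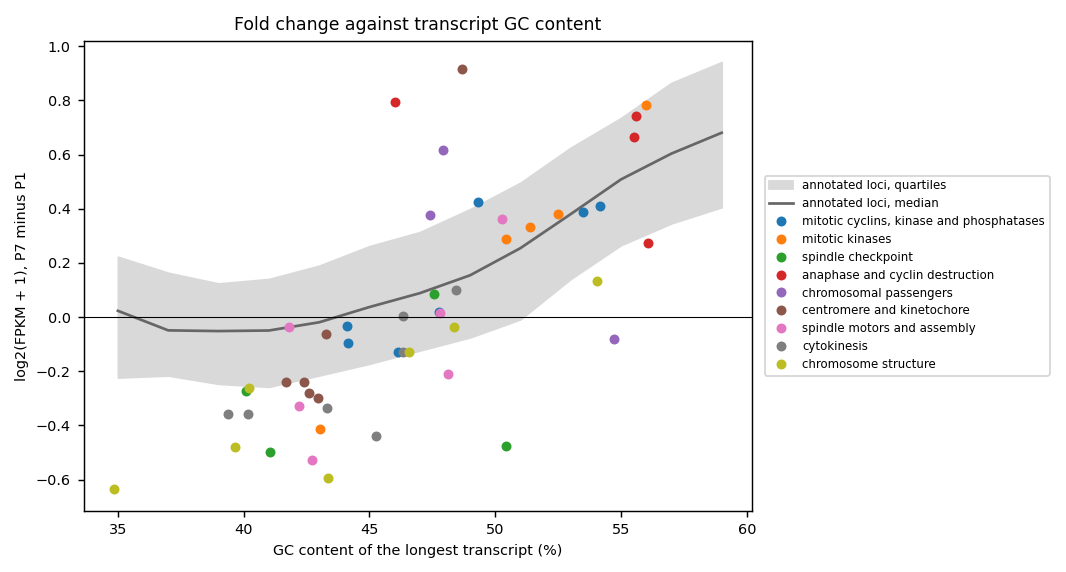
The log2 fold change of each of the 49 genes as deposited (y axis, P7 minus P1) is plotted against the GC content of its longest transcript in percent (x axis), coloured by role, over the median (line) and quartiles (band) of annotated loci in bins of 2 percentage points. Members and background both climb to the right, and 35 of the 49 genes lie below the line.

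Beyond the 49 members, 134 further genes of the same processes were read from lists of kinetochore, checkpoint, spindle, cytokinesis, condensin and cohesin, anaphase-promoting complex, kinase partner and transcription regulator genes. Of these, 3 were higher in P7 and 0 lower with limma, beside 7.74% and 0.401% of annotated loci, and at an unadjusted p under 0.05 there were 16 higher and 6 lower, beside 25.6% and 4.1%. After scaling 4 were higher and 12 lower, beside 7.76% and 3.47%. With scaling and GC correction together 1 was higher and 0 were lower, where 1047 of all 47865 loci were called in either direction. Their median log2 fold change was 0.06 as deposited and -0.17 after scaling, between those of the members and of all annotated loci. In scaled values, 109 of the 134 were higher in P7 replicate 3 than in replicate 1 and 112 in replicate 4 than in replicate 2, so the order of the P7 hearts was common here too but not universal as it was among the members.

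The genes called as deposited were Cenpb, the protein that binds the centromeric CENP-B box, with 15.1, 10.9, 7.601 and 15.8 FPKM in P1 and 28.3, 27.7, 42.7 and 26.3 FPKM in P7 (log2 fold change 1.30 ± 0.25, limma adjusted p = 0.0188), Haus5 of the augmin complex (0.95 ± 0.20, adjusted p = 0.0257) and Ncaph2 of condensin II (0.86 ± 0.21, adjusted p = 0.0394). The rows of Cenpb and of the member Cdc25b give the same interval, chr2:131127280-131198497, and how the counting told them apart is not stated. The row of Haus5 also carries Rbm42, so its value cannot be assigned to either gene. The transcripts of Cenpb, Haus5 and Ncaph2 hold 56.3%, 56.2% and 55.7% GC. None stayed called after GC correction without scaling, where Cenpb had a log2 fold change of 0.97 ± 0.23 (limma adjusted p = 0.0653). With scaling and GC correction together Cenpb was called, at 0.73 ± 0.14 (adjusted p = 0.0299). Fzr1, the activator of the anaphase-promoting complex after mitosis, was called higher after scaling only, at 0.75 ± 0.17.

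Among the genes lower after scaling were the kinetochore genes Zwint and Cenpc1, the checkpoint genes Zwilch and Spdl1, Haus3 and Haus6 of augmin (Haus3 in a row shared with Poln), Ncapg2 of condensin II, the cohesin genes Smc3 and Stag2, Anapc1 and Rbl1. Zwilch, a subunit of the RZZ checkpoint complex, had the largest fall after scaling, with 15.2, 11.7, 12.5 and 22.6 FPKM in P1 and 6.60, 6.33, 11.6 and 10.4 FPKM in P7, where every P7 heart was below every P1 heart even before scaling. Its log2 fold change was -0.76 ± 0.25 as deposited and -0.98 ± 0.17 after scaling (limma adjusted p = 0.126 and 0.0130). None of these lower calls held with scaling and GC correction together, where Zwilch was at -0.73 ± 0.18 (adjusted p = 0.0656) and Zwint at -0.41 ± 0.11 (adjusted p = 0.0887). In the lists with no call as deposited, the largest changes were 0.73 ± 0.30 for Chmp4b, an ESCRT-III protein of abscission, 0.95 ± 0.24 for Fzr1, 0.71 ± 0.27 for Ensa, an inhibitor of a mitotic phosphatase, and 0.82 ± 0.23 for Lin37, a MuvB subunit (adjusted p = 0.216, 0.0511, 0.181 and 0.0682).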

How the data were processed

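Per the labels, total RNA of each heart was depleted of ribosomal RNA and made into a library with the ScriptSeq v2 kit. The authors had the reads aligned to GRCm38 with Ensembl annotation by a sequencing provider, and deposited FPKM per locus for each heart; the aligner and counting settings are not given in the sources used here. Per the file headers each row holds an assembled locus, its symbols and its FPKM. The files hold no counts, so the depth behind a value is unknown, and no counting interval is given. From the steps between the lowest values (loci under 0.3 FPKM in every heart), 1 FPKM stood for 0.633 to 0.801 times as many fragments in 7 hearts as in P1 replicate 1. No source says whether same-stage mice shared a litter.

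Loci that reached 1 FPKM in any heart were compared with limma 3.58.1 in R 4.3.3 on log2(FPKM + 1), with a trend on the mean and Benjamini-Hochberg adjustment over all 43172 loci; such fold changes understate the change of weakly expressed loci. A call needed an adjusted p below 0.05 and stage means that differed 1.5 times or more. The same fit was also run on simulated data with changes set in advance, whose recovery is not given here. Alternatives were other scalings, filters, pseudocounts, priors, weights, a replicate block, a GC correction (lowess, span 0.3) and leaving out each heart. Scaling combined with GC correction, with the block or with a left-out heart was added after seeing the data. Members, lists, motifs and tests were chosen with earlier results of these data known. All members are named by role, and of the other lists the called genes and the largest change of each list; the ratio pairs, the scaled calls and Zwilch's values were picked after the values were seen. Symbols absent from the files were looked up among RefSeq synonyms (Spdl1 as Ccdc99); 1 marker, Hbb-bt, was not matched. A gene of the other lists is not reported here by name. File starts count from 0 and are given from 1. Python 3.11.15 with numpy 2.4.6, pandas 2.3.3 and scipy 1.17.1 gave the tables, and matplotlib 3.10.9 the figures.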

Additional observations from a re-analysis of the deposited data

Results flagged for a closer look

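Within the 4 hearts of a stage, a single heart lay far from the others by Dixon's test in 4 of 102 groups of values, and chance alone would pick out about 1 group in 20. P1 replicate 4 was the highest heart for Cdc25c, at 2.84 FPKM with the next heart at 2.28 FPKM, for Kif20a, at 3.60 FPKM with the next at 2.18 FPKM, and for Mki67, at 17.8 FPKM with the next at 11.3 FPKM. P1 replicate 2 was the lowest heart for Bub3, at 13.96 FPKM with the next at 15.8 FPKM. As deposited, P1 replicate 4 was the highest P1 heart for 40 of the 49 members and for 64.4% of annotated loci, and after scaling for 21 members and 34.9% of annotated loci. P1 replicate 3 was the lowest P1 heart for 27 members and 53.3% of annotated loci as deposited, and for 14 members and 32.3% after scaling. It held 28662 loci at 1 FPKM or more, 14206 of them without a gene symbol. The other hearts held 20269 to 22292 such loci, 4914 to 7513 of them without a symbol. Without P1 replicate 3, 34934 loci were tested, against 43172 with it. No P7 value was picked out; 4 hearts that lie 2 and 2 apart cannot be by this test.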

How the results depend on the processing

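Over 29 alternatives no called member changed direction. Over all loci, 1650 of 43172 were called in either direction in the main test. With array quality weights 3697 were called, and with 1 FPKM required in every heart 2711 of 14340. The number was 1079 without trend, 686 of 72425 with no filter, 1283 with the replicate block and 490 with GC correction. With scaling it was 2368 of 47865, with the block added 1559 and with GC correction added 1047. Quantile normalization gave 2287. Leaving out 1 heart gave 199 to 3379. The count of members higher in P7 (1) became 3 with array quality weights or with at least 1 FPKM required in every heart (Plk1, Pttg1 and Cenpa), and 0 with eBayes without trend, with no filter, with median-ratio scaling and GC correction together, and with the replicate block, alone, with GC correction or with scaling; it was 0 to 2 with 1 heart left out and 0 to 1 with scaling and 1 heart left out. The count lower in P7 (0) became 5 with median-ratio scaling, 7 with quantile normalization (adding Anln and Ect2), 3 with the replicate block and scaling (Bub1b, Top2a and Ncapg) and 1 to 5 with scaling and 1 heart left out, and stayed 0 otherwise. Cenpa's adjusted p ran from 0.00772 to 0.128. The member median of -0.06 lay between -0.39 and 0.13 throughout. It was -0.26 with scaling, -0.16 with scaling and GC correction and -0.06 with the replicate block. With GC correction it turned positive (0.03, beside 0.22 for annotated loci). It also did so on leaving out P1 replicate 4 or either of P7 replicates 1 and 2 (0.00 to 0.13). Each of these moves was smaller than 0.44, the pooled SD of the member median over single hearts. That SD describes single hearts and not a difference between stage means, so it does not show that the moves were small. Among uncalled members, 6 changed sign with scaling and 14 with GC correction. Of the 134 other genes, those higher (3) numbered 7 with weights, 6 with the every-heart filter, 0 with GC correction, alone or with the block, 1 with scaling and GC correction, 0 to 11 with 1 heart left out and 2 to 6 with scaling and 1 heart left out; those lower (0) numbered 12 with scaling, 12 with quantile normalization, 5 with the block and scaling, 1 with the every-heart filter and 2 to 10 with scaling and 1 heart left out (9 without P7 replicate 4), and stayed 0 otherwise, also with scaling and GC correction together. The cause of these moves was not tested. Summing FPKM over the loci of a symbol left the median as it was, since each member has 1 locus.

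The replicate numbers name different mice at the 2 stages. Deviations from the stage means of same-numbered hearts correlated at -0.02, 0.12, -0.10 and -0.03, with 2 of 8 hearts correlating best with their own number. These values show no pairing by number, but with 4 hearts per stage they cannot exclude a shared litter or batch. The replicate block alone left 0 members called. With 4 hearts per stage the spread of the P7 hearts limits what the test can show, and the depth behind single values is unknown.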
